A study of Caenorhabditis elegans with 2 samples.

Results

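Respiratory chain and ATP synthase genes, whose names start with nuo-, nduf-, sdha-, sdhb-, sdhd-, ucr-, cyc-, isp-, cox-, atp-, asb- or asg-, made up 49 of the 19973 nuclear protein-coding genes of the annotation. The rule uses gene names and no peak values, but the set was proposed with earlier results of these data known. They comprised 12 genes of complex I, 4 of complex II, 9 of complex III and cytochrome c, 15 of complex IV and 9 of the ATP synthase. Each was scored for binding of MADF-3, a protein named for its MADF domain, in whole young adult Caenorhabditis elegans of strain RW12241. Its allele, written st12241[madf-3::TY1::EGFP::3xFLAG], is on chromosome II, where the tags had been inserted with CRISPR at the madf-3 gene itself. Chromatin was sheared by sonication, and an antibody against GFP was used for the immunoprecipitation. The worms were synchronised as starved L1 larvae after bleaching and collected at 63 hours. There were 2 biological replicates of this 1 group, so complexes and genes are compared here and not conditions, and all tissues of the animal are mixed. The deposited files are peak lists without read counts, so the depth of the libraries is unknown.

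The mitochondrial respiratory chain passes electrons from NADH (complex I) and succinate (complex II) through ubiquinone to complex III, then through cytochrome c to complex IV, which reduces oxygen. Complexes I, III and IV pump protons out of the matrix, and the ATP synthase lets them back through its membrane part to drive its catalytic head. Most subunits are encoded in the nucleus and imported into mitochondria. In worms, mutants of several of these genes, such as isp-1 and nuo-6, are known for slow growth and long life.

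The 5 sequences below are those under the strongest promoter summits of members, leaving out 1 chromosome whose sequence is not shown. Each is read on the gene's strand from the RefSeq copy of build ce11 (WBcel235), covers up to 100 bases on either side of the summit and stops where an annotated untranslated region begins. Capitals mark the 21 bases centred on the summit. The cox-5A, isp-1 and cyc-2.1 sequences lie upstream of the gene, whereas the atp-4 and nuo-4 sequences begin with the start codon and are coding.
cox-5A, chrIII:12905105-12905305, plus strand: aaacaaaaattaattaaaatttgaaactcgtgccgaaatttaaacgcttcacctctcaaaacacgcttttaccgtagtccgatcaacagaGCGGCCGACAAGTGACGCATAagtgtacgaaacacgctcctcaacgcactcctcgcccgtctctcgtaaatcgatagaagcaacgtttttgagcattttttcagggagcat
isp-1, chrIV:8136210-8136388, minus strand: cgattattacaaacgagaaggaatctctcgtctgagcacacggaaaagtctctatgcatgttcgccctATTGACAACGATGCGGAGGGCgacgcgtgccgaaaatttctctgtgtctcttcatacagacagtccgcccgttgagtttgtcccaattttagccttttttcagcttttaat
cyc-2.1, chrIV:4749013-4749122, minus strand: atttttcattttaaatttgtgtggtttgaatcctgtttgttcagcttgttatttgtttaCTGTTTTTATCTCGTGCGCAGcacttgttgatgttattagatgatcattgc
atp-4, chrV:6426937-6427110, minus strand: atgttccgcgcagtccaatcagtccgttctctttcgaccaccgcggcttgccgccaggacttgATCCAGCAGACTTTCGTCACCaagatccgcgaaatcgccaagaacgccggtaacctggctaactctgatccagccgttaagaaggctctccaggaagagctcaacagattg
nuo-4, chrIII:7158680-7158803, minus strand: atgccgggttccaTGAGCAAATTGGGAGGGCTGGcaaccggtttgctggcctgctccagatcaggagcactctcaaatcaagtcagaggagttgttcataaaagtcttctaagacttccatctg
The capitals held 61.9% G and C in cox-5A, 57.1% in isp-1, 47.6% in cyc-2.1, 52.4% in atp-4 and 57.1% in nuo-4. Over the whole printed stretch these shares were 43.3%, 45.8%, 31.8%, 55.2% and 50%, so the summit was richer in G and C than its surroundings in each gene except atp-4. The dinucleotide CG occurred 17 times in the cox-5A stretch and 2 times in that of nuo-4.

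MADF-3 peaks lay at the promoters of 15 of the 49 genes, and every complex had at least 1 of them. A promoter peak is a summit of the series-wide thresholded list within 500 bp of the gene's annotated 5' end on either side. The 15 were nuo-4 and nduf-7 of complex I, sdha-2 of complex II, ucr-2.2, cyc-1, isp-1 and cyc-2.1 of complex III and cytochrome c, cox-5A, cox-5B and cox-7C of complex IV, and atp-1, atp-2, atp-4, atp-5 and asb-1 of the ATP synthase. The share was 30.6% of members (exact 95% binomial interval 18.3 to 45.4%), against 6.26% of all 19973 protein-coding genes. The interval covers counting of genes only, the members are not replicates, and no test of the difference was made.

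In the series-wide list with the 500 bp window the ATP synthase had the highest share and complex I the lowest, with wide intervals. Of the ATP synthase genes 5 of 9 had a promoter peak (55.6%, exact 95% interval 21.2 to 86.3%), and of the complex III and cytochrome c genes 4 of 9 (44.4%, interval 13.7 to 78.8%). Complex II had 1 of 4 (25%, interval 0.631 to 80.6%), complex IV 3 of 15 (20%, interval 4.33 to 48.1%) and complex I 2 of 12 (16.7%, interval 2.09 to 48.4%). Counted by role, 3 of the 7 structural subunits of complex IV had a promoter peak (42.9%, interval 9.9 to 81.6%). Of its 8 assembly factors, which help to build the enzyme, 0 had one. Their interval, up to 36.9%, holds the 6.26% of all genes. The name rule leaves out sco-1, a copper-delivery factor of complex IV, which had a promoter peak. These intervals overlap one another, so the order of the complexes is not resolved with so few genes. The order also changed with the setting. Complex III with cytochrome c had the highest share in each replicate's own list, 33.3% in both. The ATP synthase had 22.2% and 11.1% there, and all protein-coding genes 3.02% and 2.85%. Among the 1370 strongest peaks of the series-wide list, complex III with cytochrome c and the ATP synthase tied at 33.3%, against 4% of all genes. Complex IV had the lowest share with 200 bp (6.67%, against 3.15% of all genes). In the series-wide list with the 500 bp window, 6.26% of all genes had a promoter peak. The intervals of the ATP synthase, of complex III with cytochrome c and of the complex IV subunits lay above that share. Those of the other groups in this paragraph held it.

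**Figure D1:**
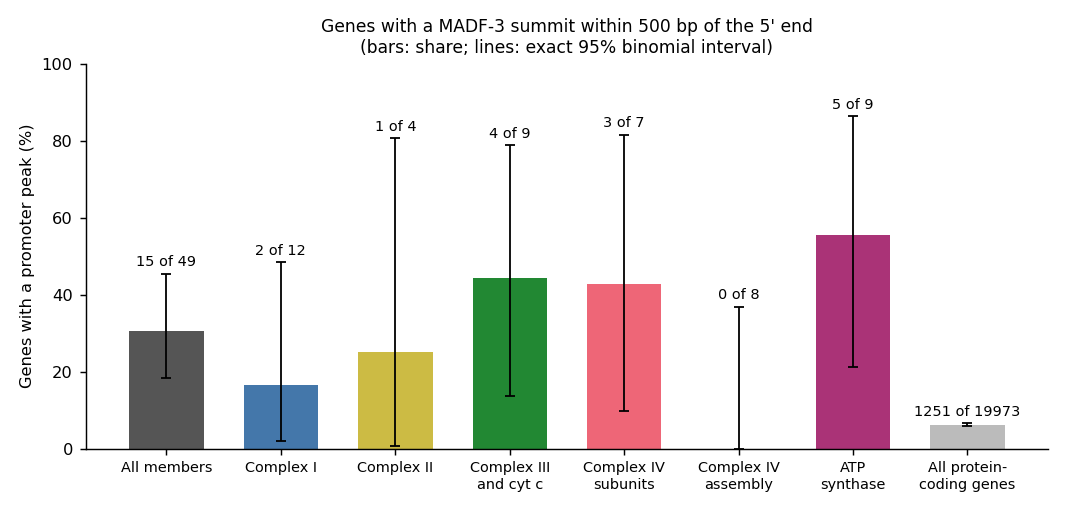
The vertical axis is the percentage of genes with a promoter summit, and each bar is 1 group of genes with its exact 95% binomial interval and its count. All 49 members together stood at 30.6%, the ATP synthase at 55.6% and the complex IV assembly factors at 0, with all protein-coding genes at 6.26% on the right.

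The strongest member peaks were at cox-5B and cox-5A, 2 of the 7 nuclear-encoded subunits of cytochrome c oxidase, the enzyme that passes electrons to oxygen. Signal is the strength that the authors deposited for each peak, on a scale that the sources used here leave unstated. For a replicate it is that of the strongest peak in its own ranked list that overlaps the series-wide peak. At cox-5B (WBGene00000371) the peak chrI:9788626-9788786 had 250 in replicate 1 and 223 in replicate 2, a mean of 237 ± 18.8 (SD, n = 2), with the summit at -23 bp, where negative is upstream. At cox-5A (WBGene00012553) the peak chrIII:12905143-12905263, whose sequence is given above, had 212 and 164 (mean 188 ± 34.6, SD, n = 2) with the summit at -286 bp. Both peaks were well above the other members in both replicates, and in the series-wide list they ranked 45 and 70 of 2741 by signal.

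The peak at cox-7C (WBGene00009161), chrI:9772600-9772819, had 121 in replicate 1 and 85.3 in replicate 2 (mean 103 ± 25.01, SD, n = 2) and ranked 168. Its summit was at -462 bp, near the edge of the window, and only -145 bp from the divergent gene F26E4.4, so the peak is nearer to that gene. The other complex IV subunits cox-4, cox-6A and cox-6C had ranked peaks with series-wide signals of 46.9, 36.8 and 41.1 that did not enter the thresholded list.

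One more complex IV subunit, cox-6B, had a strong peak near the start of a shorter transcript, which the 5' end of its gene model leaves out. The annotated gene is 87197 bp long because 1 of its 2 transcripts starts far upstream, and no peak of the series-wide ranked list was within 500 bp of that end. The other transcript starts at chrIII:2786202, and a thresholded peak at chrIII:2785941-2786160 had its summit at -151 bp from it. That peak had 141 in replicate 1 and 127 in replicate 2 (mean 134 ± 9.91, SD, n = 2), above the values at cox-7C. It was nearer to Y71H2AM.20, a gene on the other strand, at -103 bp, so it is shared like the peaks of isp-1 and cox-7C. With the 5' ends of all transcripts, 16 of the 49 members had a promoter peak, against 6.88% of all protein-coding genes, and cox-6B was the 1 gene gained.

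In complex III the peaks at isp-1 and cyc-1 had the highest means, and their order differed between the replicates. Peak chrIV:8136200-8136419 at isp-1 (WBGene00002162), the Rieske iron-sulphur protein, had 117 in replicate 1 and 62.9 in replicate 2 (mean 89.9 ± 38.2, SD, n = 2), the highest ratio of replicate 1 to replicate 2 among member peaks at 1.86. It lay between divergent genes, at -255 bp from isp-1 and -79 bp from islo-1, so it too was nearer to the neighbour. At cyc-1 (WBGene00000869), which encodes cytochrome c1, the peak chrI:8024621-8024840 had 65.5 and 66.5 (mean 66.0 ± 0.725, SD, n = 2) at -309 bp, with no other protein-coding 5' end in the window.

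The cytochrome c gene cyc-2.1 (WBGene00017121) was the only member with 2 thresholded summits in the window. The first, chrIV:4748943-4749162, was at -41 bp with 63.7 and 42.6 (mean 53.2 ± 14.9, SD, n = 2). The second, chrIV:4748561-4748780, lay in an intron at +341 bp with 42.4 and 56.3 (mean 49.3 ± 9.79, SD, n = 2). The order of the summits differed between the replicates, so neither was the stronger one in both. At ucr-2.2 (WBGene00011679), a core protein, the peak chrX:15173555-15173774 at -239 bp had 23.5 and 44.8 (mean 34.2 ± 15.04, SD, n = 2), the lowest ratio of replicate 1 to replicate 2 at 0.525.

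Among ATP synthase genes, atp-1 stood apart from the rest. Peak chrI:12652171-12652390 at atp-1 (WBGene00010419), the alpha subunit of the catalytic head, had 129 in replicate 1 and 112 in replicate 2 (mean 120.2 ± 11.95, SD, n = 2) and ranked 133. The summit was at +4 bp, in the 5' untranslated region, and also -194 bp from the divergent gene mcrs-1. At atp-4 (WBGene00020275), a stalk subunit, peak chrV:6426927-6427146 had 45.3 and 35.9 (mean 40.6 ± 6.66, SD, n = 2) at +75 bp, inside the coding sequence printed above.

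The remaining 3 ATP synthase peaks had similar means. Their series-wide signals were 76.8 at atp-5, above the median of 73.1 over the list, and 62.0 at asb-1 and 61.4 at atp-2, below it. Peak chrIII:4595922-4596141 at asb-1, a b subunit of the stalk known as the germline form in worms, had 32.2 and 37.9 (mean 35.1 ± 4.05, SD, n = 2) at -211 bp. Peak chrV:11124014-11124233 at atp-5, the d subunit, had 43.5 and 25.6 (mean 34.5 ± 12.7, SD, n = 2) at -257 bp and was nearer to lmtr-3, at -62 bp. Peak chrIII:5228481-5228700 at atp-2, the beta subunit that carries the catalytic sites, had 34.1 and 32.7 (mean 33.4 ± 1.03, SD, n = 2) and lay at +174 bp in a coding exon. The means of these 3 differed by less than the SD of atp-5, the largest of the 3. The highest and lowest mean differed by more than the SD of atp-2.

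In complexes I and II the peaks at nuo-4 and sdha-2 had series-wide signals of 92.1 and 75.9, above the list's median of 73.1, and that at nduf-7 had 63.1, below it. At nuo-4 (WBGene00019401), an accessory subunit, peak chrIII:7158670-7158889 had 58.8 in replicate 1 and 37.8 in replicate 2 (mean 48.3 ± 14.8, SD, n = 2) with its summit at +29 bp, in the coding sequence printed above. At nduf-7, an iron-sulphur subunit near the ubiquinone site, the values of peak chrI:9110861-9111080 were 27.1 and 28.6 (mean 27.9 ± 1.09, SD, n = 2) at -53 bp, the lowest mean of all member peaks. At sdha-2, a flavoprotein subunit of complex II, those of peak chrI:10685640-10685859 were 43.5 and 32.5 (mean 37.97 ± 7.78, SD, n = 2) at -163 bp.

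**Figure D2:**
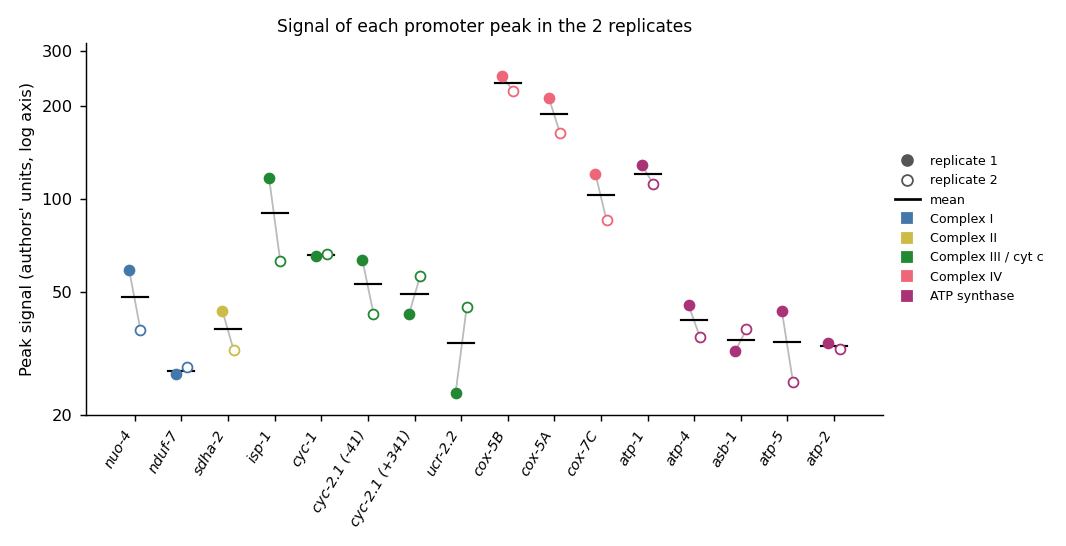
Points give the authors' peak signal on a log axis in replicate 1 (filled) and replicate 2 (open) for each of the 16 promoter summits, with the mean as a line and complexes by colour. The cox-5B and cox-5A points sit at 164 or above in both replicates, atp-1 and cox-7C between 85.3 and 129, and the other summits, isp-1 apart, at 66.5 or below.

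Both replicates had a value at all 16 summits. Replicate 1 was the higher at 11 of them (68.8%), with a median ratio of replicate 1 to replicate 2 of 1.21 and a range of 0.525 to 1.86. Over the 2655 series-wide peaks with a value in both, replicate 1 was higher at 51.9% and the median ratio was 1.015. The lists' scales are not given, so these ratios mix binding with any difference of scale.

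The members with the strongest peaks were called in each replicate taken alone, and 6 of the 16 summits had a peak in neither. In replicate 1's own thresholded list of 962 peaks, 9 members had a promoter peak (18.4%, against 3.02% of all protein-coding genes). In replicate 2's list of 863 peaks, 7 did (14.3%, against 2.85%). The 7 were cox-5A, cox-5B, cox-7C, atp-1, cyc-1, isp-1 and cyc-2.1, and replicate 1 had these and also nuo-4 and atp-4. The ATP synthase had 5 of 9 in the series-wide list, 2 of 9 in replicate 1's list and 1 of 9 in replicate 2's, while complex IV had the same 3 genes in all of these lists. Complex I had 1 of 12 in replicate 1's list and 0 of 12 in replicate 2's, and complex II had none of its 4 in either.

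In the conservative list, made from the true replicates, 14 members had a promoter peak (28.6%, against 6.14%). It held a peak at nuo-5, the large iron-sulphur subunit of complex I, and none at nduf-7 or ucr-2.2. Among the 1370 stronger peaks of the series-wide list, 11 members had one (22.4%, against 4%), without nduf-7, ucr-2.2, atp-2 and asb-1.

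Positions of the summits spanned most of the window. Of the 16 summits, 11 were upstream of the 5' end (68.8%) and 5 downstream, with a median of -108 bp and a range of -462 to +341 bp. Over all 1306 pairs of a protein-coding gene and a thresholded summit, 73.2% were upstream and the median was -147 bp. Downstream, 3 member summits lay in coding exons (nuo-4, atp-2 and atp-4), 1 in an intron (cyc-2.1) and 1 in a 5' untranslated region (atp-1). In worms the annotated 5' end is often a trans-splice site, which limits the precision of these distances.

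The choice of window and of gene mattered for several members. Within 200 bp, 8 members had a summit (16.3%, against 3.15%), and cyc-1, isp-1, ucr-2.2, cox-5A, cox-7C, atp-5 and asb-1 did not. Within 1000 bp, 19 had one (38.8%, against 8.76%), the 4 added being nuo-2, nduf-2.2, sdhd-1 and cox-6A. When any base of the peak could fall in the 500 bp window, the same 15 were found (30.6%, against 6.83%).

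Members shared their summit with another protein-coding gene in 4 of 15 cases (26.7%), namely atp-1, atp-5, cox-7C and isp-1, and each partner was transcribed away from the member on the other strand. Of the 1251 protein-coding genes with a promoter peak, 440 (35.2%) shared a summit. When each summit counted only for the nearest 5' end, 12 members kept a peak (24.5%, against 5.21%), and cox-7C, isp-1 and atp-5 lost theirs. Binding at these 3 peaks cannot be assigned to one gene of the pair from positions alone.

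**Figure D3:**
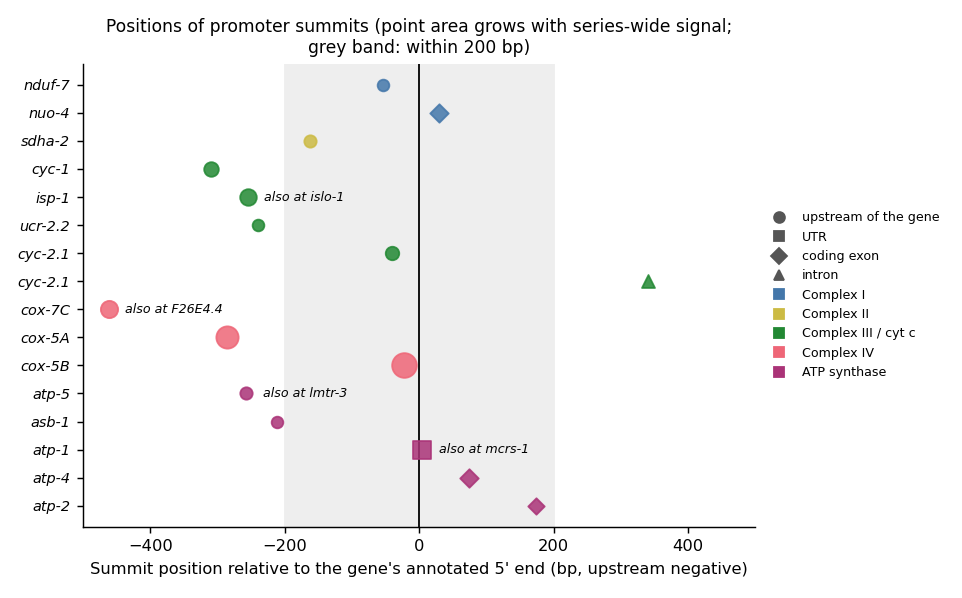
Each row is 1 promoter summit, placed by its distance in bp from the member's annotated 5' end, with point area growing with series-wide signal and shape giving the annotated place. Of the 16 summits, 11 lie left of 0, and the 4 summits shared with another gene carry its name.

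The 34 members without a promoter peak mostly had weaker ranked peaks. The ranked list made from both replicates together holds 113502 peaks before the threshold, and 44 of the 49 members had at least 1 of them within 500 bp. The strongest had a median signal of 44.3 over all 49, counting the 5 members without any as 0, against 25.6 over all 19973 protein-coding genes, of which 5123 had none. The 5 were nduf-9, ucr-2.3, cox-6B, cox-10 and cox-17. It was above the median of all genes in 36 of 49 members. By complex the median was 62.0 in the ATP synthase, where all 9 genes were above the median of all genes, 47.4 in complex III with cytochrome c, 38.9 in complex I, 35.6 in complex IV and 32.4 in complex II. The structural subunits of complex IV had a median of 46.9 and its assembly factors 23.2, below that of all genes. Among the 29 members with a ranked peak alone, signals spanned 22.4 to 63.9 in 9 genes of complex I and 7.67 to 44.3 in 3 of complex II. They spanned 12.2 to 47.4 in 4 genes of complex III with cytochrome c, 16.2 to 46.9 in 9 of complex IV and 33.9 to 63.2 in 4 of the ATP synthase. These ranges overlap the 61.4 of atp-2, the weakest thresholded peak of a member, in complex I and the ATP synthase.

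Signal alone did not set which members entered the thresholded list. The 3 highest ranked peaks outside it were at nduf-11, an accessory subunit of complex I, with 63.9, at asg-1, a g subunit of the ATP synthase membrane part, with 63.2, and at its paralogue asg-2 with 54.4. The first 2 exceeded the signals of members inside the list, namely 63.1 at nduf-7, 62.0 at asb-1 and 61.4 at atp-2. The asg-1 summit was at +465 bp, near the edge of the window. The lowest score in the thresholded list, on the authors' scale of irreproducible discovery rate, was 830, and nduf-11 had 794 and asg-1 798. In their own ranked lists the replicates had 36.5 and 20.4 at nduf-11 and 25.4 and 36.2 at asg-1, values that span the 27.1 and 28.6 of nduf-7 inside the list. No member promoter had a ranked peak at or above a score of 830 that was missing from the thresholded list.

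**Figure D4:**
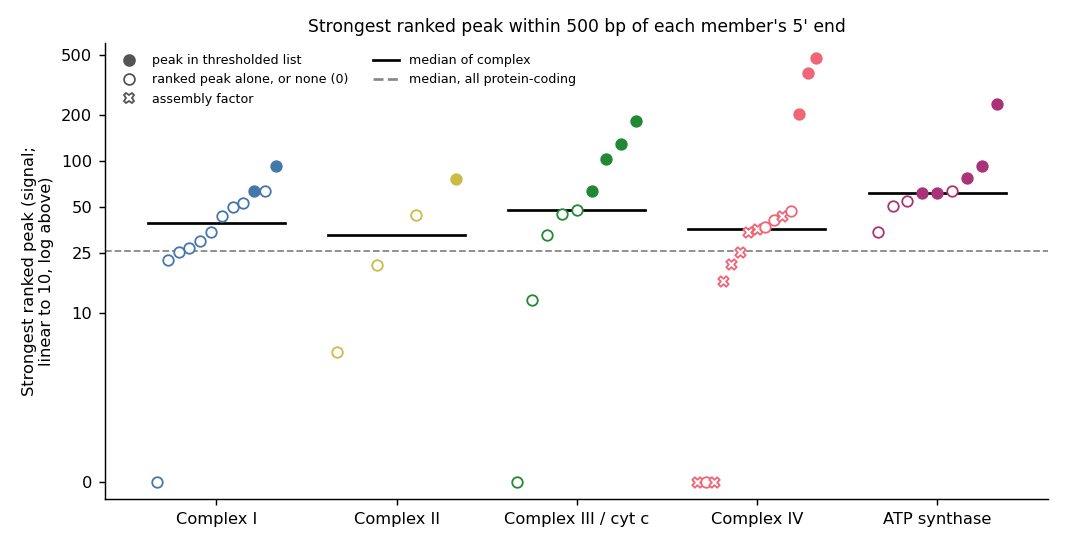
The vertical axis is the series-wide signal of the strongest ranked peak within 500 bp of each of the 49 members (linear up to 10, log above), filled where a thresholded peak was present, with complex medians as black lines. All 9 ATP synthase genes lie above the dashed line at 25.6, the median of all protein-coding genes, and the 5 members with no ranked peak lie at 0.

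Among 5 sets of paralogous members, compared after the values were seen, 4 had a thresholded peak at 1 gene of the set, and 1 at none. Over all members the share with a promoter peak was 30.6%, against 6.26% of all protein-coding genes. The differences within sets were not tested. The thresholded peaks at sdha-2, asb-1 and ucr-2.2 were in neither replicate's own thresholded list. That at ucr-2.2 was also missing from the conservative list. The signal at asg-1, outside the series-wide thresholded list, exceeded that at asb-1 inside it. The asg-1 summit was at +465 bp, near the edge of the window. Of the flavoprotein genes, sdha-2 had a thresholded peak and sdha-1 a ranked peak of 44.3 with a score of 165. Of the b subunit genes, asb-1 had a thresholded peak of 62.0 and asb-2 a ranked peak of 33.9 with a score of 245. Of the cytochrome c genes, cyc-2.1 had 103 at the peak with the higher series-wide signal, and cyc-2.2 had a ranked peak of 12.2. Of the core protein genes, ucr-2.2 had 63.6, ucr-2.1 a ranked peak of 47.4, and ucr-2.3 none. Of the g subunit genes, asg-1 and asg-2 had ranked peaks of 63.2 and 54.4, and neither had a thresholded peak.

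The genes sdha-1, asb-2, ucr-2.1 and asg-2 lie on the X chromosome with ucr-2.2, which makes 5 members there, and only ucr-2.2 had a promoter peak (20%, against 2.27% of the 2731 protein-coding genes on X). On the autosomes 14 of 44 members had one (31.8%, against 6.90%). By chromosome the counts were 6 of 15 on I (against 9.07%), 0 of 6 on II (against 6.49%), 4 of 12 on III (against 9.36%), 2 of 6 on IV (against 7.01%) and 2 of 5 on V (against 4.55%). The part of chromosome in the differences between paralogues was not tested.

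The median share of G and C around member summits was below that around all summits and above that of ordinary upstream sequence. Windows of 100 bases on either side of the 16 summits had a median of 41.3% G and C, with a range of 33.3% at the first cyc-2.1 summit to 54.7% at nduf-7. The median was 43.8% over all 2741 summits and 32.8% over windows of the same length before the 5' end of each protein-coding gene. The member windows include 5 centred downstream of the 5' end, among them those in coding exons of nuo-4, atp-2 and atp-4. The upstream windows all lie before it. The part of this difference in place was not tested, and no test of the differences in G and C was made.

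Fixed words were searched on both strands in the same windows. The word TGCGTCTC, or GAGACGCA on the other strand, was in 1 of 16 member windows, the intronic summit of cyc-2.1 (6.25%, against 5.33% of all summits and 2.59% of upstream windows). The words GAGAGAGA and TTCCCGC were in 0 of 16 member windows, against 3.65% and 4.89% of all summits and 2.75% and 2.198% of upstream windows. The word TTTCAG, the letters of a common worm splice acceptor, was in 7 of 16 (43.8%), against 23.5% of all summits and 36.9% of upstream windows, and TATAAA was in 4 of 16 (25%), against 11.2% and 30.5%. The cox-5A and isp-1 sequences printed above each end shortly after a TTTCAG on the gene's strand. A match is a count of letters and not a binding site.

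Other genes of oxidative metabolism had promoter peaks at shares between those of members and of all genes. Of 26 further listed genes of the respiratory chain and of ubiquinone synthesis, 10 are encoded in the mitochondrial genome and were not scored. The other 16 matched nuclear protein-coding genes of the annotation, and 3 of these had a promoter peak (18.8%, exact 95% interval 4.05 to 45.6%). They were sco-1, which delivers copper to complex IV, with 66.8 in replicate 1 and 84.0 in replicate 2, mev-1, a membrane anchor of complex II, with 54.6 and 49.7, and mai-1, an ATP synthase inhibitor, with 31.5 and 31.0. The mev-1 summit, at -132 bp, was also at jmjd-4. With mev-1, 2 of the 5 complex II genes scored here had a promoter peak. Of 22 listed genes for citric acid cycle enzymes or their isoforms and for pyruvate dehydrogenase, 4 had one (18.2%, interval 5.19 to 40.3%). These were aco-2, dld-1, idh-1 and sucl-2, with means of 84.0 ± 4.25, 46.6 ± 3.78, 40.6 ± 5.10 and 41.4 ± 19.7 (SD, n = 2 each). Of 12 genes of mitochondrial carriers, import and chaperones, 3 had one (25%, interval 5.49 to 57.2%), namely the ADP/ATP carrier ant-1.1, the import receptor tomm-20 and the chaperonin hsp-60, with means of 77.4 ± 6.36, 65.5 ± 4.96 and 33.5 ± 13.5 (SD, n = 2 each). The aco-2 summit, at -344 bp, was also at eef-1B.1, and that of hsp-60, at +481 bp, was near the edge of the window. The interval of each of these lists holds both the 30.6% of members and the 6.26% of all genes.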

How the data were processed

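MADF-3 chromatin immunoprecipitation was profiled in 2 biological replicates. The deposited files are peak lists on ce11, per the deposited file descriptions. They hold the signal of each peak and a score of at most 1000 made by the authors from the irreproducible discovery rate. The sources used here name no aligner, peak caller or version. Per the same descriptions, series-wide lists came from both replicates' alignments with 1 (ranked) or 2 (thresholded) further input files, whose content was not analysed here. Being in the series-wide thresholded list was not taken as a sign that both replicates agree. All 2741 of its peaks were rows of the ranked list of 113502.

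Genes came from Ensembl release 115 (WBcel235, the assembly of ce11) and sequence from the RefSeq copy of WBcel235. Coordinates are 1-based. Counts have exact 95% (Clopper-Pearson) intervals, which cover counting only, and depth is unknown. With 1 group, no test between conditions was possible, and none was made between gene lists. The counting was tested on planted summits. Python 3.11.15, pandas 2.3.3, SciPy 1.17.1 and matplotlib 3.10.9 were used. Every member is accounted for, those with a promoter peak in full and the 3 highest outside the list by name. Members, lists and words were chosen with earlier results of these data known. Alternatives were other lists, windows, 5' ends and assignments.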

Additional observations from a re-analysis of the deposited data

How the results depend on the processing

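Counts of members with a promoter peak stayed within 1.5 times the reported 15 for the conservative list, the 1370 stronger peaks, 1000 bp, all transcripts' 5' ends, the nearest gene alone, any base of the peak, autosomes alone (14 of 44) and without assembly factors (15 of 41). They moved further with each replicate's own list (7 to 9) and with 200 bp (8). For complex I the count was 1 among the stronger peaks, 4 with 1000 bp and 0 to 1 in the replicates' own lists, against 2. For complex II it was 2 with 1000 bp and 0 in both replicates' lists, against 1. With 200 bp it was 1 for complex III with cytochrome c, 1 for complex IV and 3 for the ATP synthase, which also had 3 among the stronger peaks and 1 to 2 in the replicates' lists, against 5. Of all protein-coding genes, 3.15% had a promoter peak with 200 bp and 8.76% with 1000 bp. Their share was 4% among the stronger peaks and 3.02% and 2.85% in the 2 replicates' lists. The median signal of the strongest ranked peak over members was 28.5 with 200 bp, 51.5 with 1000 bp and 22.4 to 22.5 in the replicates' own ranked lists, whose scale may differ, and did not move in the true-replicate ranked list. The replicates' lists are shorter and the 200 bp window is narrower by construction. No paired analysis was possible because there is 1 group. The lists give no read counts, so weak peaks cannot be weighed by depth.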

Other observations

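The name rule leaves out complex I subunits that the annotation names otherwise. Of the 19 genes whose names start with ndua-, ndub-, nduc-, ndus- or nduv-, a list added after the annotation was read, 3 had a promoter peak (15.8%, exact 95% interval 3.38 to 39.6%), close to the 2 of 12 (16.7%) of complex I members. They were nduc-2, with 53.0 in replicate 1 and 41.9 in replicate 2 at +79 bp, nduv-3, with 66.9 and 33.2 at -132 bp and a summit also at mdf-2, and nduv-2, with 25.9 and 28.6 at +387 bp.

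The word CGCGACGC, chosen after the most frequent words at the strongest summits were seen, was in 118 of 2741 summit windows (4.30%) and in 82 of 19973 upstream windows (0.411%). Because the word was chosen from summits of this same list, its higher share there cannot serve as evidence. Among member summits it was in 1 of 16, at cox-7C.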
